A study of Homo sapiens with 12 samples.

Results

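The 52 genes described here are the ligands and receptors of the tumour necrosis factor (TNF) superfamily and the TRAF adaptor proteins, out of 57187 genes in the count table. They were taken by gene symbol: every *TNFRSF* and *TNFSF* gene, *TRAF1* to *TRAF7*, and the members whose symbols do not follow that pattern (*TNF*, *LTA*, *LTB*, *LTBR*, *CD27*, *CD70*, *CD40*, *CD40LG*, *FAS*, *FASLG*, *NGFR*, *EDAR* and *EDA2R*). They comprise 17 ligands, 8 receptors with a death domain, 4 decoy receptors, 16 other receptors and 7 adaptors. The ligands are mostly trimeric proteins of the cell surface, and their receptors signal either through a death domain, which can assemble a caspase-activating complex, or through TRAF proteins, which link the receptor to NF-kB and MAP kinases. Decoy receptors bind a ligand without passing on a death signal. SIVA was first known as a protein that binds the cytoplasmic tail of CD27, the receptor of CD70, and it also binds GITR, the product of *TNFRSF18*.

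RNA sequencing was done on 4 human lines of cancer cells, of which HCC1954 and MDA-MB-231 are from breast and SKOV3 and OVCAR8 from ovary. Each line gave 1 library of control cells, 1 of cells transfected with *SIVA-WT* and 1 of cells that carry *SIVA-D160N*, the aspartate-to-asparagine form, so there were 12 libraries and no replicate within a line and condition. The sample labels call the control cells parental and untreated, whereas the study's supplementary methods also call them empty-vector cells, and they are named EV here. The *SIVA* inserts were driven by a CMV promoter, transfected as linearized plasmid and kept under hygromycin selection, and the transfectants are described as polyclonal for HCC1954, SKOV3 and OVCAR8. All cells were grown in RPMI-1640 with fetal bovine serum.

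Total counts ran from 35791455 to 45890398 per library, and the 52 genes together took 0.109% to 0.160% of them. A gene with 0 counts could still be present at up to 0.0663 to 0.0850 CPM, taking 3 counts as the limit. CPM is the count of a gene scaled to a fixed library total with its TMM factor, and such limits cover counting error only. *SIVA1* was higher in both transfectants than in EV in 4 of 4 lines, but the EV library of HCC1954 had 0 counts of it, against 1272, 2419 and 1985 counts in the EV libraries of MDA-MB-231, OVCAR8 and SKOV3. That library therefore goes against its label as cells with their own *SIVA1*, and its part in the results was not tested beyond leaving it out. The lines carried the markers looked for only in part. *ERBB2* was high in HCC1954 (5691 to 9127 CPM) and SKOV3 (5950 to 12135 CPM), *PAX8* in OVCAR8 and SKOV3 (60.9 to 243 CPM), and *CDH1* and *EPCAM* in HCC1954, whereas the breast marker *GATA3* reached only 1.79 to 2.85 CPM in MDA-MB-231 and the Müllerian marker *MUC16* was highest in HCC1954. Of 12 markers of leukocytes, lymphocytes, myeloid and endothelial cells, 8 stayed under 1 CPM in every library and *CD3D* and *MS4A1* were at 0 throughout. Their summed level was 51.8 to 90.1 CPM in HCC1954, most of it the endothelial genes *PECAM1* and *CDH5*, and 0.502 to 5.33 CPM in the other lines.

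The most basic measurement is which members reached a set level. Members under it are called not present here but can still have counts, such as *LTA* with 38, 24 and 39 in MDA-MB-231. With a mean of at least 1 CPM over its 3 libraries as the limit, 23 of the 52 members were present in MDA-MB-231, 23 in HCC1954, 22 in SKOV3 and 27 in OVCAR8. In all genes of the table the shares at this limit were 22.4%, 23.6%, 23.2% and 24.0%. Those shares cover every row, whatever its gene type, so they are no matched background for the members. The roles differed in this respect. Of the 7 adaptors, 6 were present in all 4 lines, as were 6 of the 8 death-domain receptors. Only 1 of the 17 ligands was present in all 4 lines, and 10 were present in none. Of the 16 other receptors, 4 were present in all lines and 9 in none. In 14 members no library had more than 10 counts, namely the ligands *CD40LG*, *FASLG*, *LTB*, *TNFSF8*, *TNFSF14* and *TNFSF18*, the decoy *TNFRSF6B*, and the receptors *CD27*, *EDA2R*, *TNFRSF1B*, *TNFRSF4*, *TNFRSF13B*, *TNFRSF17* and *TNFRSF18*. *CD40LG* and *TNFRSF6B* had 0 counts in all 12 libraries. The value of *TNFRSF6B* is uncertain, because it lies inside the readthrough gene *RTEL1-TNFRSF6B*, which took 89 to 176 counts per library, and reads that fit both genes cannot be assigned to either.

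**Figure D1:**
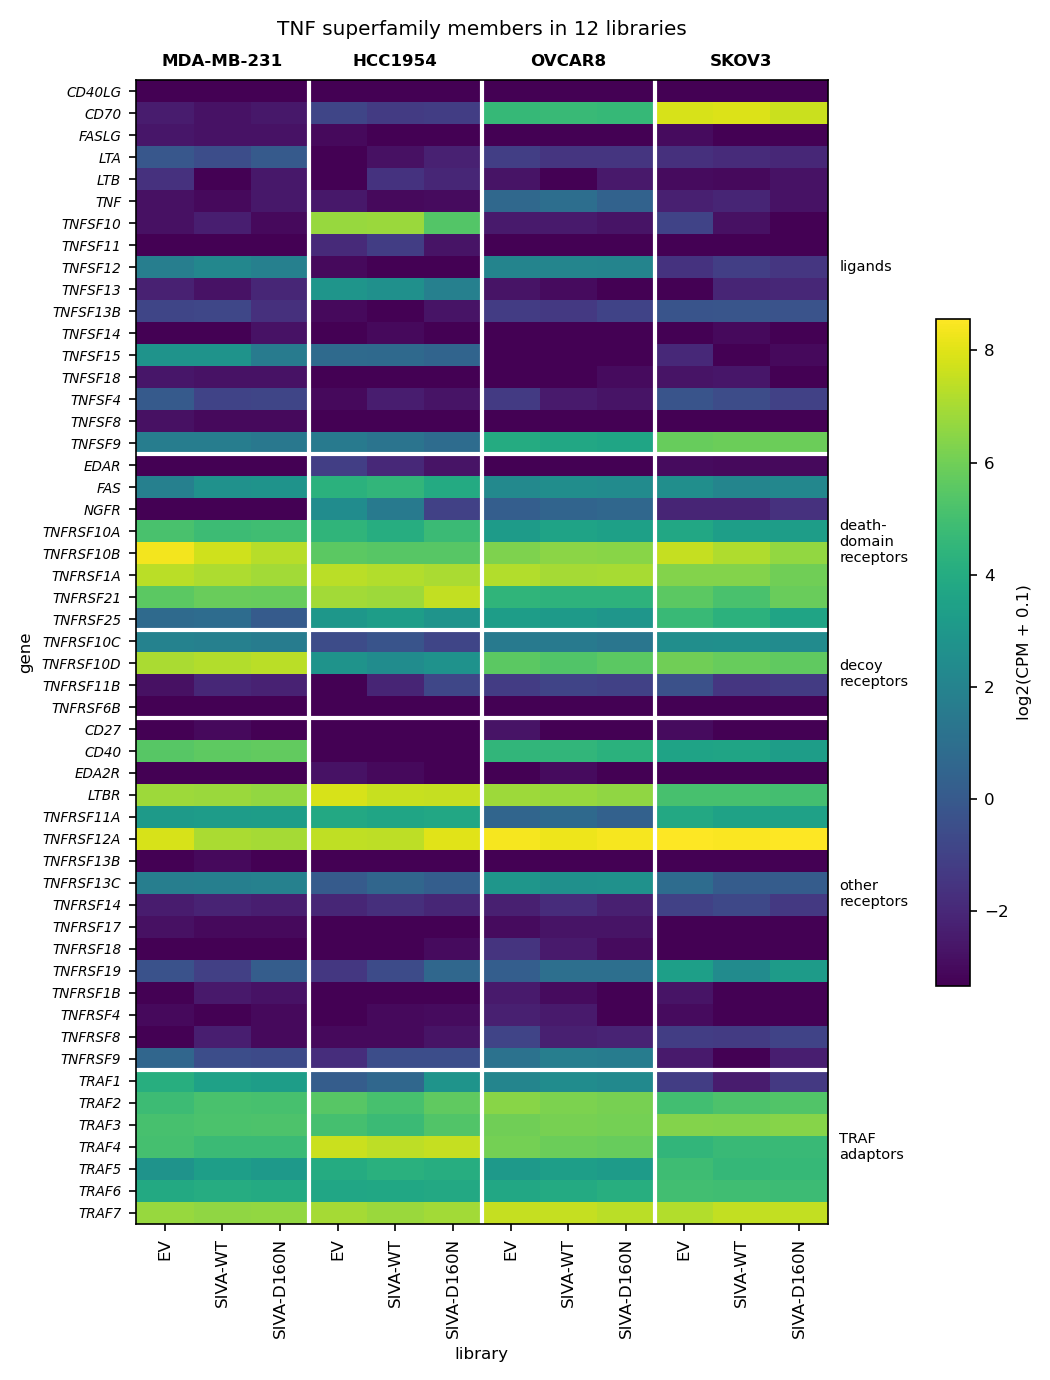
Level of each of the 52 members (rows, grouped by role) in the 12 libraries (columns), as log2(CPM + 0.1), with dark purple for the lowest and yellow for the highest values. The adaptors and most death-domain receptors are bright in all 4 lines, while bright cells among the ligands are limited to a few genes and lines, such as *CD70* in SKOV3 and *TNFSF10* in HCC1954.

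*CD27* and *TNFRSF18*, 2 of the receptors that bind SIVA, were among the silent members. The paper also mentions other death receptors as partners of SIVA, so this does not cover every receptor that binds it. *CD27* (chr12:6443892-6451713, GRCh38) had 0, 1 and 0 counts in the EV, *SIVA-WT* and *SIVA-D160N* libraries of MDA-MB-231, 0 counts in all 3 of HCC1954, 2, 0 and 0 in OVCAR8, and 1, 0 and 0 in SKOV3. *TNFRSF18* (chr1:1203508-1206592) had 0 counts in all libraries of MDA-MB-231 and SKOV3, 0, 0 and 1 in HCC1954, and 9, 3 and 1 in OVCAR8. Neither passed the filter on low expression, so neither has a fitted value here. The ligand of GITR, *TNFSF18*, had no more than 3 counts in any library. In contrast, the ligand of CD27 was abundant in both ovarian lines. *CD70* (chr19:6581648-6591150) had 232, 243 and 199 CPM in SKOV3 (EV, *SIVA-WT*, *SIVA-D160N*) and 24.9, 26.3 and 24.5 CPM in OVCAR8, but 0.451, 0.322 and 0.340 CPM in HCC1954 and 0.0884, 0.0505 and 0.0728 CPM in MDA-MB-231. The 4 lines did not overlap, and each differed from the next in order by edgeR's quasi-likelihood test (FDR 9.92e-10, 7.42e-11 and 3.63e-05 from the highest pair to the lowest). Its mean in SKOV3 was 225 CPM ± 23.0 (SD, n = 3).

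The promoters of 4 members are shown because they cover the range from silent to present in every line. Each is the 250 bases before the RefSeq transcript start, 5′ to 3′ on the gene's strand, in GRCh38.p14, with matches in capitals to TATAAA (the TATA box) or to GAAANNGAA (the core of elements bound by interferon regulatory factors), both searched on both strands. *CD27* (chr12:6443642-6443891, plus strand), present in no line, and *LTBR* (chr12:6383912-6384161, plus strand), present in all 4, held no match. *TNFSF10* (chr3:172523431-172523680, minus strand), present in HCC1954 alone, held TATAAA from position -31 to -26 before the start and GAAANNGAA at -54 to -46 and -186 to -178, both on the opposite strand. *TNFSF9* (chr19:6530776-6531025, plus strand), present in all lines, held TATAAA at -30 to -25 and GAAANNGAA at -194 to -186.
CD27: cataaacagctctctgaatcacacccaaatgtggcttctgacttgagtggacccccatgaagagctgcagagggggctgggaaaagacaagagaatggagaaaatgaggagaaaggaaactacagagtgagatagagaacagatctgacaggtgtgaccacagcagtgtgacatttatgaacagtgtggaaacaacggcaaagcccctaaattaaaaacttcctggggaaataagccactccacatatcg
LTBR: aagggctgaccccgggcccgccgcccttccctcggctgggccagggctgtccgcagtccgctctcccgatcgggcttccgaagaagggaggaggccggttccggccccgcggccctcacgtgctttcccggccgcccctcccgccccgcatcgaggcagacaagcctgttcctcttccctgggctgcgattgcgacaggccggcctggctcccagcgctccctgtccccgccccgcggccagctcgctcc
TNFSF10: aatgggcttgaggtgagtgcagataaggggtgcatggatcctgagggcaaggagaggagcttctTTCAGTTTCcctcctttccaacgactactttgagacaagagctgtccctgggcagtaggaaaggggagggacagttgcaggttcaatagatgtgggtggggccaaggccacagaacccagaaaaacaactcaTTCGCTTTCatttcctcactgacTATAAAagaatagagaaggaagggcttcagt
TNFSF9: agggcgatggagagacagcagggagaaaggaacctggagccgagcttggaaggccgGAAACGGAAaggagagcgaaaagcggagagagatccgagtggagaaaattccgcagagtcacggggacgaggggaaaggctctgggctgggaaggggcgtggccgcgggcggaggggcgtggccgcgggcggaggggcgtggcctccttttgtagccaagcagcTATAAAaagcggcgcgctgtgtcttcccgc

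TATAAA was found in 10.7% of 35116 RefSeq windows and in 6 of the 36 members with a window, and GAAANNGAA in 6.88% of windows and in 5 members. The percentages are per window, whereas a member was counted if any of its windows matched, so they are not like for like. The motifs thus stood in promoters of members with unlike patterns. The number of CpG dinucleotides is given with presence as a description. The 13 members present in all 4 lines had a median of 26 CpG in 250 bases (range 4 to 51), the 7 present in some lines a median of 7 (2 to 12), and the 16 present in none a median of 5 (0.5 to 22, averaged where a gene has several starts). Over 16007 genes with a window and a row of counts, the medians were 21, 15 and 4 CpG in the same order. *TNFRSF1A*, at 62.9 CPM or more in every library with 4 CpG, and *TNFRSF1B* and *TNFRSF18*, silent with 22 and 18 CpG, departed from this order.

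**Figure D2:**
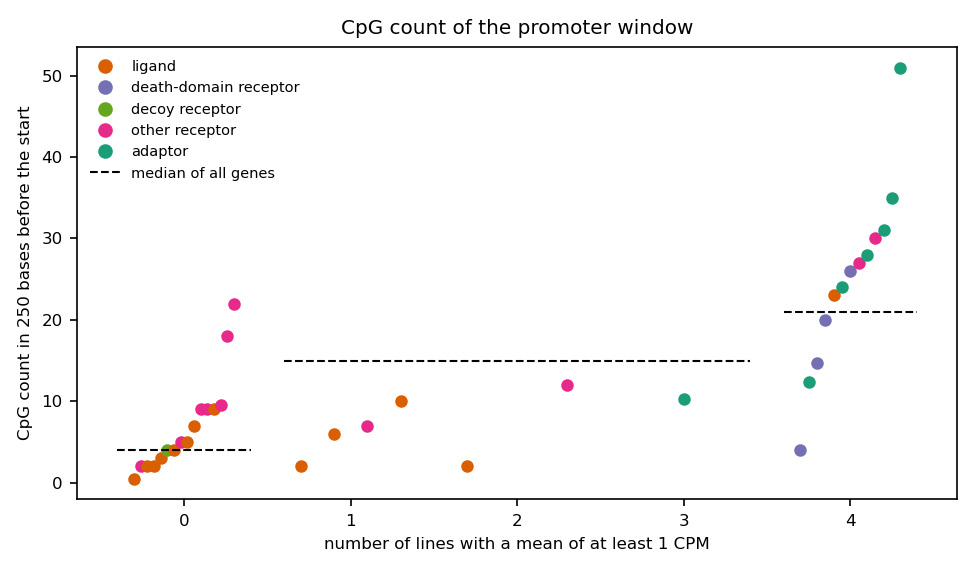
CpG dinucleotides in the 250 bases before the start (y axis) of the 36 members with a RefSeq window, against the number of lines in which the member had a mean of at least 1 CPM (x axis). Colours mark the role, points are spread sideways only to be seen, and dashed lines are the medians of all genes in no line, in 1 to 3 lines together and in all 4 lines. The members present in all lines lie mostly above 20 CpG.

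For the comparison among lines, 36 members passed the filter and 35 of them differed at an FDR under 0.05, against 94.1% of all 19204 genes tested, so this share is no property of the family. The 3 libraries of a line are transfected versions of it, and these p-values measure only the spread between such versions. The size of the differences is given as a description. Genes high in a single line passed the filter through that line, and a line at 0 counts stands at a floor of -4.33 log2 CPM. The ranges are therefore no test of the family. From the highest to the lowest line, the members spanned a median of 3.02 on the log2 scale of fitted CPM, against 1.77 in all genes tested, and 8 of 36 (22.2%) spanned 5 or more, against 15.2% of all genes. SKOV3 was the highest line for 13 members, HCC1954 for 9, MDA-MB-231 for 8 and OVCAR8 for 6. Only *TNFRSF11B* did not pass (FDR 0.106), and without the EV library of HCC1954 all 36 passed. In 5 members, *CD70*, *CD40*, *TNFSF9*, *TNFRSF10B* and *TNFRSF10D*, every line differed from its neighbour in order. Neither this count nor that of the highest line was made over all genes, so both are descriptions and no property of the family.

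Of the ligands, 3 were present in a single line, *TNFSF10* and *TNFSF13* in HCC1954 and *TNF* in OVCAR8. *TNFSF10*, which encodes the death ligand TRAIL, had 107, 111 and 41.2 CPM in the EV, *SIVA-WT* and *SIVA-D160N* libraries of HCC1954 and at most 16 counts in any library of the other lines. HCC1954 lay 9.23 above SKOV3, the next line, on the log2 scale (standard error 0.42). *TNFSF10* passed the filter by line through its HCC1954 counts, so this gap is given as a description without a test. The other 3 lines did not differ from their neighbours in order (FDR 0.316 and 0.800 by edgeR's quasi-likelihood test). *TNFSF13*, which encodes the B cell factor APRIL, had 7.36, 6.20 and 3.48 CPM in HCC1954 and no more than 6 counts in any other library. Its neighbour *TNFSF12*, which encodes TWEAK, had other lines at the top and the bottom, with 3.25 to 4.42 CPM in MDA-MB-231, 3.96 to 4.19 CPM in OVCAR8, 0.238 to 0.358 CPM in SKOV3, and 1, 0 and 0 counts in HCC1954. These genes lie side by side (chr17:7549058-7557881 and chr17:7558282-7561601), and the readthrough gene *TNFSF12-TNFSF13* that spans them had 0 counts in every library. Reads that fit both the readthrough and either gene cannot be assigned, so these values carry the limit given for *TNFRSF6B*. *TNFSF15*, which encodes the ligand of the receptor DR3, had 6.87, 6.77 and 2.94 CPM in MDA-MB-231, 1.64, 1.58 and 1.33 CPM in HCC1954, 6, 0 and 1 counts in SKOV3, and 0 counts in OVCAR8, so that MDA-MB-231 was at least 69.5-fold higher than OVCAR8 with 3 counts per library as the limit. *TNF* itself reached 1.5, 1.86 and 1.25 CPM in OVCAR8 and was at most 0.134 CPM in the other lines.

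*TNFSF9*, which encodes the ligand of 4-1BB, was the only ligand present in all 4 lines, with 55.3, 60.3 and 59.4 CPM in SKOV3, 15.8, 14.0 and 12.5 in OVCAR8, 3.18, 3.18 and 2.60 in MDA-MB-231 and 2.80, 2.25 and 1.73 in HCC1954. Its first and second lines were those of *CD70*, which lies near it on chromosome 19 (*TNFSF9* at chr19:6531026-6535924), while *TNFSF14*, next to *CD70* (chr19:6661253-6670588), had no more than 2 counts in any library. Its receptor *TNFRSF9* had 2.13, 3.30 and 3.05 CPM in OVCAR8, 1.44, 0.606 and 0.534 CPM in MDA-MB-231, 0.190, 0.597 and 0.595 CPM in HCC1954, and 3, 0 and 4 counts in SKOV3. SKOV3 was thus the highest line for the ligand and the lowest for the receptor.

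**Figure D3:**
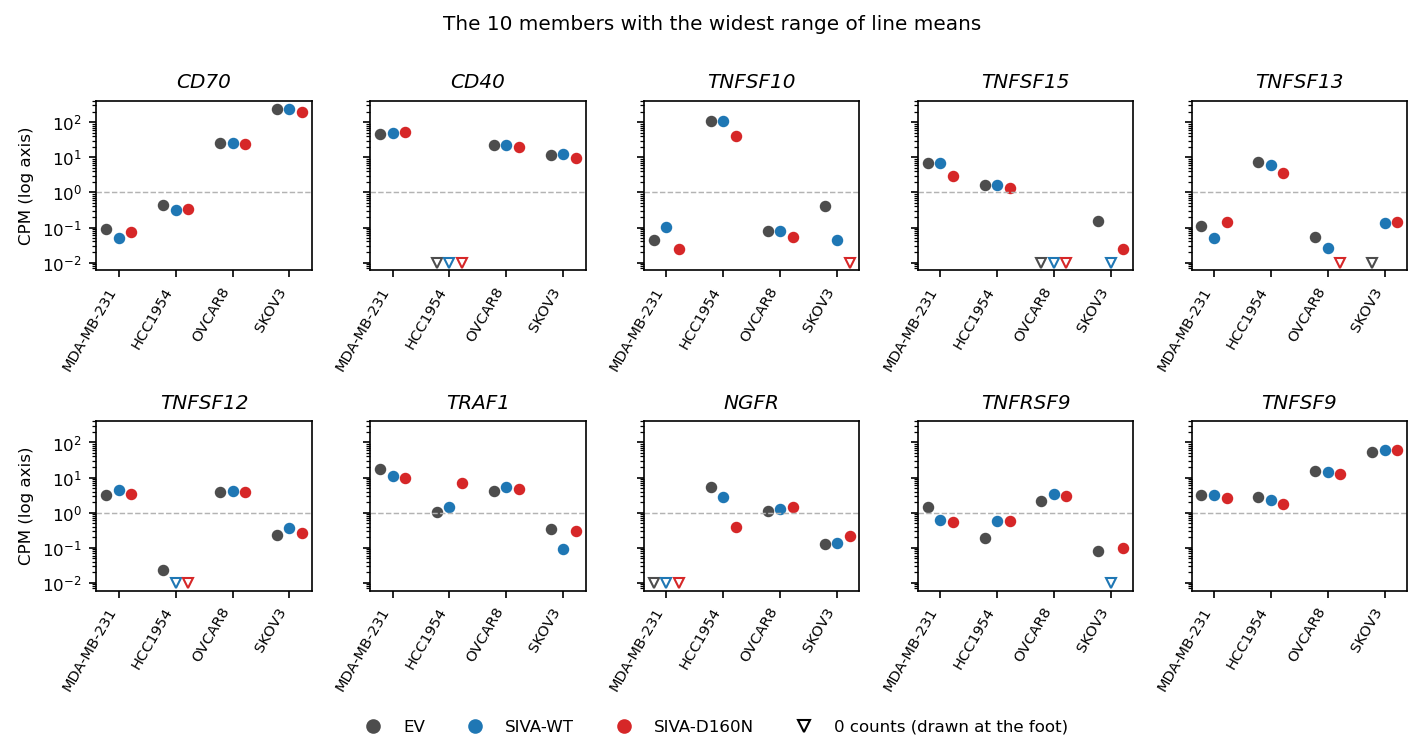
CPM on a log axis (y) in each library of the 4 lines (x) for the 10 members with the widest range of line means, with 1 point per library coloured by condition, a dashed line at 1 CPM, and open triangles at the foot for libraries with 0 counts. Libraries of the same line lie close together in most panels, while *TNFSF10*, *NGFR* and *TRAF1* in HCC1954 are spread by condition.

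Among the receptors without a death domain, *TNFRSF12A*, the receptor of TWEAK, was the highest member per kilobase of exon in every line, at 91.4, 112, 185 and 206 CPM per kb in MDA-MB-231, HCC1954, OVCAR8 and SKOV3. *CD70* came second on this scale in SKOV3, at 147 CPM per kb. *CD40*, a receptor known from antigen-presenting cells, had 45.1, 49.4 and 52.4 CPM in MDA-MB-231, 22.6, 22.4 and 19.4 in OVCAR8, 11.8, 12.2 and 9.63 in SKOV3, and 0 counts in all 3 libraries of HCC1954, which puts MDA-MB-231 at least 652-fold above HCC1954 with 3 counts per library as the limit. Its ligand *CD40LG* was at 0 counts throughout. *LTBR*, the lymphotoxin beta receptor, ranged from 32.7 CPM in SKOV3 to 232 CPM in HCC1954, while its ligand genes *LTA* and *LTB* stayed under 1 CPM in every library. *LTBR*, *TNFRSF1A* and *CD27* lie close together on chromosome 12 (*TNFRSF1A* at chr12:6328771-6342076), the first and second present in every line and *CD27* in none.

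Of the death-domain receptors, *TNFRSF1A*, the main receptor of TNF, had the narrowest range, 0.96 on the log2 scale, and HCC1954, MDA-MB-231 and OVCAR8 did not differ from their neighbours in order (FDR 0.508 and 0.610). *FAS* was highest in HCC1954 at 15.2 to 22.4 CPM and lay at 3.56 to 6.77 CPM elsewhere. *NGFR*, the low-affinity neurotrophin receptor, had 5.46, 2.85 and 0.396 CPM in HCC1954, 1.09, 1.31 and 1.49 in OVCAR8, 0.132, 0.134 and 0.221 in SKOV3 and 0 counts in MDA-MB-231. *TNFRSF25*, which encodes DR3, was highest in SKOV3 (26.1, 19.9 and 12.1 CPM) and lowest in MDA-MB-231 (1.64, 1.72 and 0.971 CPM), the line with the most of its ligand *TNFSF15*.

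The TRAIL receptors *TNFRSF10A*, *TNFRSF10B* and *TNFRSF10D* were present in every line, whereas TRAIL was present in HCC1954 alone. *TNFRSF10B*, the death receptor DR5, had 330, 212 and 154 CPM in MDA-MB-231, 183, 144 and 98.4 in SKOV3, 77.3, 89.3 and 86.9 in OVCAR8 and 47.5, 44 and 44.9 in HCC1954. The decoy *TNFRSF10D* had 134, 147 and 164 CPM in MDA-MB-231, 62.6, 56.2 and 50.1 in SKOV3, 47.5, 40.9 and 47.7 in OVCAR8 and 6.79, 5.40 and 6.68 in HCC1954. HCC1954 thus had the ligand together with the lowest level of this decoy, 2.84 below OVCAR8 on the log2 scale (standard error 0.13, FDR 6.02e-09). The decoys *TNFRSF10C* and *TNFRSF10D* summed to 0.0988 to 0.106 of the death receptors *TNFRSF10A* and *TNFRSF10B* in HCC1954, against 0.433 to 0.581 in OVCAR8 and 0.347 to 0.510 in SKOV3. In MDA-MB-231 the ratio was 0.377 in EV, 0.627 in *SIVA-WT* and 0.906 in *SIVA-D160N*, the widest spread within a line. These 4 genes are related copies in 1 cluster, and reads that fit several of them may have been lost or split in counting.

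**Figure D4:**
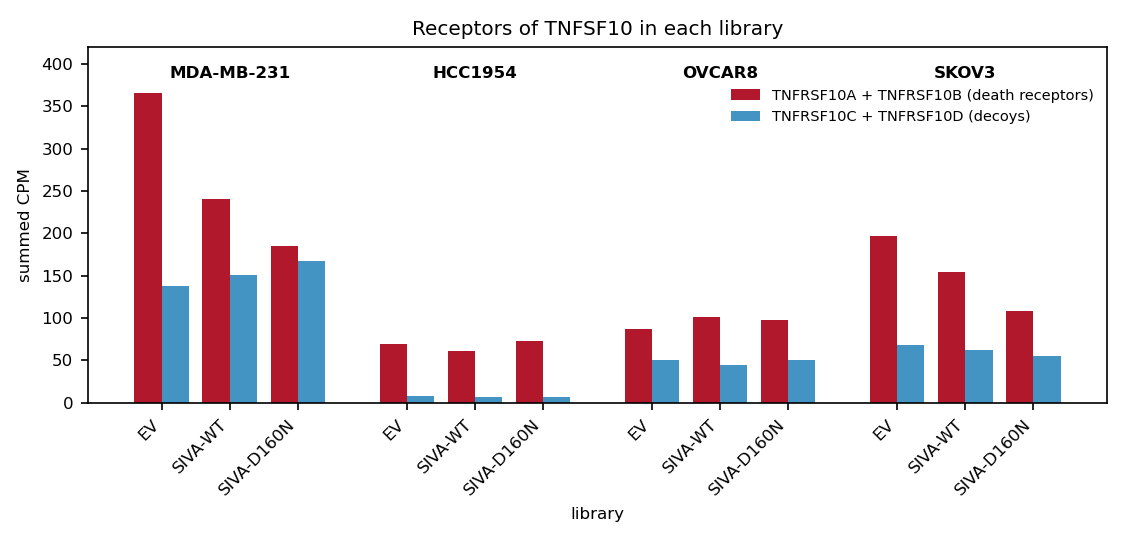
Summed CPM (y axis, from 0) of the death receptors *TNFRSF10A* and *TNFRSF10B* (red) and of the decoys *TNFRSF10C* and *TNFRSF10D* (blue) in each of the 12 libraries (x axis), 1 library per bar and no error bars because there is no replicate. The death receptor bars of MDA-MB-231 run from 365 in EV to 184 in *SIVA-D160N*, while the decoy bars of HCC1954 are no higher than 7.36.

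All 7 adaptors were present in every line except *TRAF1* in SKOV3. *TRAF1*, itself a target of NF-kB, had 17.3, 11.2 and 9.78 CPM in MDA-MB-231, 4.18, 5.39 and 4.85 in OVCAR8, 1.04, 1.49 and 6.94 in HCC1954 and 0.343, 0.0894 and 0.295 in SKOV3. *TRAF4*, first described in breast carcinoma, was highest in HCC1954 with 199, 168 and 182 CPM and lay between 22.3 and 68.7 CPM in the other lines. *TRAF7* (0.80), *TRAF6* (1.13), *TRAF2* (1.22) and *TRAF3* (1.28) had the narrowest log2 ranges of the adaptors.

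The remaining members were low or varied little by condition. *TNFRSF11A*, the receptor RANK, had 8.86 to 14.4 CPM in MDA-MB-231, HCC1954 and SKOV3 and 1.20 to 1.60 CPM in OVCAR8, while its ligand *TNFSF11* was seen only in HCC1954 with 7, 15 and 2 counts. The soluble decoy of that ligand, *TNFRSF11B*, had at most 25 counts in any library. *TNFRSF13C*, the receptor of the B cell factor BAFF, had 6.15 to 7.51 CPM in OVCAR8 and 0.973 to 3.64 CPM elsewhere, and *TNFSF13B*, which encodes BAFF, had at most 0.782 CPM. *TNFRSF8* (CD30) and *TNFRSF14* (HVEM) stayed under 0.5 CPM in every library. *EDAR*, the ectodysplasin receptor, had 15, 7 and 2 counts in HCC1954 and at most 1 elsewhere. Like the 14 members with no more than 10 counts, *EDAR* and *TNFSF11* did not pass the filter on low expression, and they have no fitted value here. *TNF*, *TNFSF13* and *TNFRSF14* passed the filter by line only, so they have no fitted value in the comparisons of conditions.

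Ligands and their receptors seldom reached 1 CPM in the same line. Of 28 known ligand-receptor pairs, both genes reached 1 CPM in 4 pairs in HCC1954, 3 in OVCAR8, 2 in MDA-MB-231 and 0 in SKOV3. In HCC1954 these were *TNFSF10* with *TNFRSF10A*, *TNFRSF10B* and *TNFRSF10D*, and *TNFSF15* with *TNFRSF25*. In OVCAR8 they were *TNF* with *TNFRSF1A*, *TNFSF12* with *TNFRSF12A* and *TNFSF9* with *TNFRSF9*, and in MDA-MB-231 *TNFSF12* with *TNFRSF12A* and *TNFSF15* with *TNFRSF25*. In SKOV3, 2 pairs had only the ligand, 14 only the receptor and 12 neither. The ligands present in SKOV3 were *CD70* and *TNFSF9*.

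In the comparison of *SIVA-WT* vs EV, with the 4 lines as replicates and a term for the line, 0 of the 33 members tested were called, a call needing an FDR below 0.05 together with a log2 fold change of 1.5 or more in size. The share of all 17211 genes was 0%. By edgeR's quasi-likelihood test 0 members had an unadjusted p-value under 0.05, against 2.54% of all genes, and DESeq2 and limma-voom also called 0. The members' median log2 fold change was -0.09, against -0.01 in all genes, with 8 fitted values above 0 and 25 below. Of all genes, 51.6% had values below 0. The values of smallest p were those of *TNFSF4*, the ligand of OX40 (-0.71, standard error 0.39), *TNFRSF1A* (-0.15, 0.08) and *TNFRSF12A* (-0.29, 0.18) on the lower side, and *TRAF5* (0.18, 0.13), *TNFSF12* (0.28, 0.24) and *FAS* (0.19, 0.22) on the higher, each with an FDR of 1.00.

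In *SIVA-D160N* vs EV, 0 of 33 members were called, and the share of all genes was 0.00581%. An unadjusted p under 0.05 was reached by 6 members, against 14.2% of all genes, and all 6 had negative log2 fold changes (DESeq2 and limma-voom called 0 members at the thresholds). The members' median was -0.09 against -0.01, with 12 values above 0 and 21 below, where 51.7% of all genes were below 0. In *SIVA-D160N* vs *SIVA-WT*, 0 members were called (0% of all genes), with 4 at an unadjusted p under 0.05 against 6.88% of all genes, of which 2 were higher and 2 lower. DESeq2 and limma-voom called 0 here as well. The comparisons share libraries, the EV libraries in both comparisons with EV and the *SIVA-D160N* libraries in both comparisons of that form.

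*TNFSF10* had the smallest p in both. Its log2 fold change was -1.62 in *SIVA-D160N* vs EV (standard error 0.41, FDR 0.166, lower in 4 of 4 lines) and -1.37 vs *SIVA-WT* (0.40, FDR 0.719, lower in 4 of 4 lines), by edgeR's quasi-likelihood test. The FDR over the ways of processing ran from 0.000929 to 1.00 for the first and from 0.0151 to 1.00 for the second. The counts behind it were unequal, with 4519, 4836 and 1454 counts in the EV, *SIVA-WT* and *SIVA-D160N* libraries of HCC1954, 2, 4 and 1 in MDA-MB-231, 3, 3 and 2 in OVCAR8 and 16, 2 and 0 in SKOV3. *TNFSF10* passed the filter on low expression through the HCC1954 libraries and the EV library of SKOV3. That EV library also gives the fall in SKOV3, so the gene entered the test in part through a high EV value. Only HCC1954 was above 1 CPM, and the log2 ratio of its *SIVA-D160N* library was -1.38 to EV and -1.43 to *SIVA-WT*, without a replicate. Without the EV library of HCC1954 the fitted value was -2.65 (FDR 0.281), and the EV libraries behind it then had at most 16 counts. The markers *PECAM1* and *CDH5* were also lower in the *SIVA-D160N* library of HCC1954 (32.3 and 12.4 CPM) than in EV (62.1 and 25.1) and *SIVA-WT* (59.5 and 15.6), the summed level of all 12 markers of other cell types was 51.8, 90.1 and 79.2 CPM in the same order, and *PTPRC*, the leukocyte marker, stayed under 1 CPM. Their part in the result was not tested. In bulk libraries, fewer cells with a transcript and less transcript per cell cannot be told apart.

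*TNFRSF1A* had a log2 fold change of -0.33 in *SIVA-D160N* vs EV (standard error 0.08, FDR 0.168). It had 161, 138 and 120 CPM in MDA-MB-231 (EV, *SIVA-WT*, *SIVA-D160N*), 163, 147 and 131 in HCC1954, 148, 125 and 129 in OVCAR8 and 81.9, 82.9 and 62.9 in SKOV3, so *SIVA-D160N* was below EV in 4 of 4 lines although the groups overlapped across lines. DESeq2 gave this gene an FDR of 0.0185 with a log2 fold change of -0.34, which is under the fold threshold (range over all ways of processing 0.0185 to 1.00). *TNFRSF25* also was lower in 4 of 4 lines vs EV (-0.59, standard error 0.17, FDR 0.209) and vs *SIVA-WT* (-0.52, 0.17, FDR 0.719). Its log2 ratio of *SIVA-D160N* to EV was -1.10 in SKOV3 and -0.72 in MDA-MB-231, against -0.36 in OVCAR8 and -0.13 in HCC1954. *LTBR* was lower in 4 of 4 lines by small steps (-0.20, standard error 0.08, FDR 0.307).

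*TNFRSF10B* had a fitted value of -0.49 vs EV (standard error 0.18, FDR 0.274), made of log2 ratios of -1.10 in MDA-MB-231, -0.90 in SKOV3, -0.08 in HCC1954 and 0.17 in OVCAR8. *TNFSF4* (-1.06, 0.41, FDR 0.286) was under 1 CPM in every library. On the higher side, *TNFRSF21*, the death receptor DR6, had 120, 114 and 179 CPM in HCC1954 and 48.2, 36.1 and 57.3 in SKOV3 (EV, *SIVA-WT*, *SIVA-D160N*), and in the other lines 47.4 to 56.8 and 20.5 to 21.5. Its fitted value was 0.26 vs EV (standard error 0.14, FDR 0.425) and 0.32 vs *SIVA-WT* (0.14, FDR 0.725). *TNFRSF19*, a receptor also called TROY, gave 0.66 (0.37, FDR 0.443) and 0.82 (0.37, FDR 0.725), with 0.285, 0.551 and 1.44 CPM in HCC1954 and 10.3, 5.23 and 9.07 CPM in SKOV3. The value vs EV was 0.36 without the EV library of HCC1954 and 0.27 without that line. *TRAF3*, an adaptor that restrains non-canonical NF-kB, was 0.13 vs EV (0.10, FDR 0.573), with a higher value in 4 of 4 lines.

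**Figure D5:**
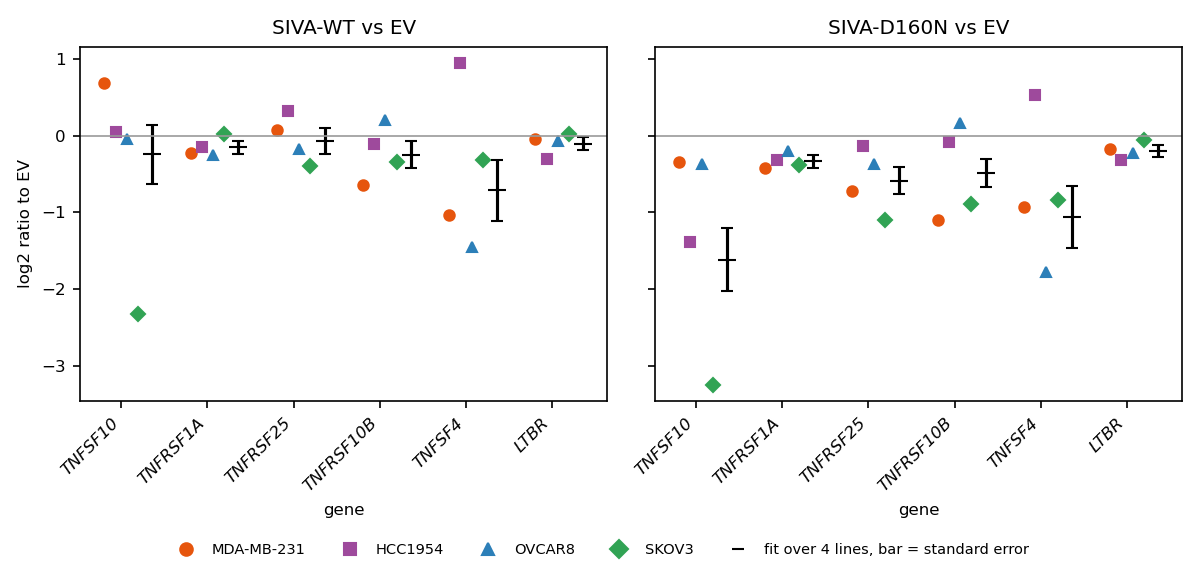
Log2 ratio to EV (y axis) of the 6 members with an unadjusted p under 0.05 in *SIVA-D160N* vs EV, shown for *SIVA-WT* (left) and *SIVA-D160N* (right), with 1 coloured point per line and the fitted log2 fold change over the 4 lines with its standard error in black. For *SIVA-D160N*, *TNFSF10*, *TNFRSF1A*, *TNFRSF25* and *LTBR* lie below 0 in all 4 lines. The points of *TNFSF10* outside HCC1954 rest on at most 16 counts.

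Within a line there was no replicate, and members were counted by size. Of those present in a line, 0 differed at least 2-fold between *SIVA-WT* and EV in any line, where all genes present did so at 1.48% (MDA-MB-231), 1.74% (HCC1954), 0.547% (OVCAR8) and 2.85% (SKOV3). In *SIVA-D160N* vs EV, *TNFRSF10B* and *TNFSF15* were lower in MDA-MB-231 (2 of 23 members, against 4.12% of all genes). In HCC1954, *NGFR*, *TNFSF10* and *TNFSF13* were lower and *TRAF1* higher (4 of 23, against 7.68%). In OVCAR8 0 of 27 passed (0.832% of all genes), and in SKOV3 *TNFRSF25* alone was lower (1 of 22, against 5.16%). In *SIVA-D160N* vs *SIVA-WT* *TNFSF15* alone passed in MDA-MB-231 (1 member, against 1.01%), *NGFR*, *TNFSF10* and *TRAF1* passed in HCC1954 (3 members, against 6.45%), and 0 members passed in OVCAR8 (0.19%) or SKOV3 (0.783%).

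HCC1954 was thus the line with the most members past this size, and they lay in both directions. For *SIVA-D160N* it also had the largest share of all genes past it (7.68% vs EV and 6.45% vs *SIVA-WT*). This ranking is therefore no property of the members. The values vs EV use the EV library that lacked *SIVA1* counts. *NGFR* had 230 counts in EV, 124 in *SIVA-WT* and 14 in *SIVA-D160N*, and *TRAF1* had 44, 65 and 245. In the same line *TNFAIP3*, which encodes the NF-kB inhibitor A20, had 8.07, 11.6 and 36.8 CPM, and *BIRC3*, which encodes an inhibitor of apoptosis that binds TRAF proteins, had 19.7, 22 and 48.8 CPM. *CCL2*, also a target of NF-kB, had the opposite order with 32.5, 27.1 and 11 CPM. In MDA-MB-231 *TRAF1* and *BIRC3* had the opposite order, with *BIRC3* at 33.2, 17.1 and 14.9 CPM. In the NF-kB core of HCC1954, *NFKBIA* fell (54.2, 49.3 and 43.9 CPM) and *NFKB2* rose (46.1, 51.6 and 64.3 CPM) in the order EV, *SIVA-WT*, *SIVA-D160N*. These NF-kB genes were picked after their values were seen, and a common direction was not tested. The mesenchymal marker *VIM* was 94.6, 159 and 288 CPM and *ERBB2* 9127, 7613 and 5691 CPM in the 3 libraries of HCC1954, and their part in these values was not tested.

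A difference between breast and ovarian lines in the change from EV was tested as an interaction, and 0 of 33 members passed an FDR of 0.05 in either comparison (edgeR's quasi-likelihood test), where all genes did so at 0% for *SIVA-WT* and 0.00581% for *SIVA-D160N*. An unadjusted p under 0.05 was reached by 2 members in each, against 1.78% and 5.06% of all genes. The lowest FDR was that of *NGFR* in *SIVA-D160N* vs EV, where the ovarian lines exceeded the breast lines by 4.28 on the log2 scale (standard error 0.63, FDR 0.338). *NGFR* had 0 counts in MDA-MB-231, so its counts in the breast lines came from HCC1954 alone.

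Of 51 further genes of TNF receptor signalling, 48 were tested and 0 were called in any comparison by edgeR's quasi-likelihood test. They comprise 16 genes of the death-signalling complexes, 16 of the NF-kB core, 16 targets of NF-kB, and 3 ligands or receptors outside the symbol pattern. In *SIVA-D160N* vs EV an unadjusted p under 0.05 was reached by 5 of them, 4 with higher values, *SOD2*, *CHUK* and *MAP3K7* among them, and 1, *IKBKB*, with a lower value, against 14.2% of all genes. *SOD2*, a mitochondrial superoxide dismutase induced through NF-kB, was higher in 4 of 4 lines (0.23, standard error 0.07, FDR 0.221), with log2 ratios of 0.16 to 0.28. *CHUK*, the kinase IKK-alpha, was 0.24 (0.09, FDR 0.289), and *IKBKB*, its partner IKK-beta, was -0.23 (0.10, FDR 0.339). The median was 0.02 over these genes in this comparison, -0.01 in *SIVA-WT* vs EV, and 0.05 for *SIVA-D160N* set against *SIVA-WT*.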

How the data were processed

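Polyadenylated RNA of 12 libraries was sequenced with a stranded kit. The deposited counts are whole reads per gene that the authors made with STAR 2.5.3a on GRCh38, per the labels and the submitters' processing notes, which also name edgeR. The annotation release and the strand setting are not given in the sources used here. Every column was matched to a sample by its label, with 0 left over, and 0 rows named no gene. The columns of other units (CPM, RPKM) were not used.

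Counts were tested as deposited with edgeR 4.0.16 (R 4.3.3), with TMM factors, a filter on low expression (filterByExpr by condition, or by line for the comparison among lines) and the quasi-likelihood test, over all genes, and p-values were adjusted by the Benjamini-Hochberg method (FDR). The filter left 17211 genes for the comparisons of conditions, which took the 4 lines as replicates with a term for the line, and 19204 genes for the comparison among lines. Standard errors were computed as the absolute log2 fold change divided by the square root of F. The line is a block because the 3 libraries of a line share its cells. Deviations from the group means correlated at 0.934 to 0.972 between libraries of the same line and -0.460 to -0.186 between lines. Thresholds were an FDR of 0.05 and an absolute log2 fold change of 1.5. Log2 ratios within a line used a prior count of 2.

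Alternatives were DESeq2 1.42.0, limma-voom (limma 3.58.1), other size factors, other filters and thresholds, a prior count of 0.5, no line term, leaving out each line, and leaving out the EV library of HCC1954. The fit was tested on simulated data. Named members are *CD27* and *TNFRSF18*, members called, the 3 of smallest p each way per comparison, the 10 with the widest range among lines and their partners, and the 2 pathway genes of smallest p in each direction, of which 1 is not reported here. Other members were named after their values were seen, as counts of the roles required. The NF-kB genes given for HCC1954 lie outside this rule and were also named after their values were seen. Members, lists and tests were chosen with earlier results of these data known. Gene positions and promoters are RefSeq's for GRCh38.p14, with 52 and 36 of the 52 members matched by symbol. Exon lengths are GENCODE's. Each line and condition had 1 library. For conditions, p-values measure only how the change varied from line to line, which cannot be told apart from variation of single libraries. Among lines, they measure only the spread between transfected versions of a line. Figures were drawn with matplotlib 3.10.9.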

Additional observations from a re-analysis of the deposited data

Results flagged for a closer look

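In all, 3 values stood apart from the others in their group of 4 lines by Dixon's test at the 95% level, of 48 groups examined. About 1 in 20, or 2.4 groups, would be reached by chance, so the number found is near that. *TNFRSF12A*, the receptor of TWEAK, had a log2 ratio of -0.80 for *SIVA-WT* vs EV in MDA-MB-231, against -0.14 to -0.05 in the other lines, with a gap of 0.872 of the whole range. The log2 CPM of *TNFSF10* in HCC1954 was 6.80 in the *SIVA-WT* library and 5.37 in the *SIVA-D160N* library, with gaps of 0.934 and 0.893. The level of this gene in HCC1954 was already described above from the same libraries, so the flags add no support to it.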

How the results depend on the processing

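With all genes of at least 1 count in the fit, *SIVA-D160N* vs EV had 1 member called (*TNFSF10*, FDR 0.000929), among 172 of 34909 genes, against 0 members and 1 gene with the filter on low expression. An unadjusted p under 0.05 in place of the FDR gave 6 members in the former comparison, and 4 when *SIVA-D160N* was set against *SIVA-WT*. The number of members called was 0 to 0 when each line was left out in turn, and 0 with DESeq2, limma-voom and no replicate block (no pairing of libraries by line), in each of the 3 comparisons. Over all genes, DESeq2 and limma-voom called 12 and 27 in *SIVA-D160N* vs EV. *TNFSF10* could not be tested without HCC1954, since it then failed the filter. Among lines, 35 to 36 members differed when the libraries of each condition were left out in turn, 39 of 50 with all genes of at least 1 count (20608 of 34909 genes), and 29 of 36 when a range of 1.5 was also required (11004 of 19204 genes). The fitted values of up to 3 members of smallest p each way per comparison kept their direction in the alternatives run, and other named values were not refitted. Without MDA-MB-231 the *SIVA-WT* vs EV values of *TNFRSF12A*, *FAS* and *TRAF5* were -0.09, 0.01 and 0.06, and without HCC1954 that of *TNFRSF21* in *SIVA-D160N* vs EV was 0.14. With 1 library per line and condition, values of 1 line, such as those of *NGFR* and *TRAF1* in HCC1954, have no replicate check.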
